A study of Mus musculus with 8 samples.

Results

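The histone genes were taken as every row of the expression table that the array annotation gave 1 gene symbol beginning H1f, H2ac, H2bc, H3c or H4c (or the older Hist1h to Hist4h forms), leaving out pseudogenes. This gave 30 rows for 29 genes of the 22180 genes tested. There were 8 genes of the linker histone H1, 6 of H2A, 8 of H2B, 7 of H4 and 0 of H3. The knockout arrays (LmnaKO, called KO here, 4 arrays) and the control arrays (LmnaWT, called WT here, 4 arrays) held total RNA from whole pancreas of C57 BL6 mice 6 days after tamoxifen (3 mg for every 40 g, by intraperitoneal injection), which both genotypes received. Each genotype had 3 male samples (replicates 1 to 3) and 1 female sample (replicate 4). Lamin A/C was ablated in the acinar cells, according to the title of the series. The sources used here do not state the recombinase driver, the age of the mice or the number of mice behind a sample. The p-values therefore measure the spread between these samples.

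Histones package DNA into nucleosomes, with H2A, H2B, H3 and H4 forming the core and H1 binding the linker DNA between cores. Most of the genes above are replication-dependent: they lie in clusters as many near-identical intronless copies, are switched on in S phase, and give mRNAs that end in a stem-loop in place of a poly(A) tail. In the adult pancreas most acinar cells are not dividing. Values are the authors' log2 expression values, so a difference of 1 is a doubling, and differences are KO minus WT with the standard error (SE) of limma's moderated test. A gene was called changed at an adjusted p below 0.05 over all 22180 genes.

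Lmna, the targeted gene, had values of 2.33, 2.58, 2.73 and 2.61 in KO, against 2.54, 3.13, 2.67 and 2.88 in WT. The groups overlapped and the difference of -0.24 ± 0.16 (SE) did not pass in limma (adjusted p = 0.264). The sources used here do not state where its probes lie relative to the deleted stretch, and this row checks no label. The 4 acinar markers measured averaged 11.9 to 12.1 across KO arrays, against 12.2 in every WT array, and 0 of 4 passed. The interquartile range over genes was 2.88 to 3.03 in KO arrays and 2.11 to 2.48 in WT arrays, and the part of this in any result below was not tested.

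Of the 29 histone genes, 4 were higher and 1 was lower in KO, so 17.2% were called, 13.8% higher and 3.45% lower. Over all genes 21.6% were called, 14.6% higher and 6.99% lower, so the histone share lay no higher than the background. The higher genes were H4c9 and H4c12, which encode histone H4, H2ac20, which encodes an H2A, and H2bc18, which encodes an H2B. The lower gene was H1f8, the linker histone known from oocytes. In 24 genes the difference did not pass, and in 8 of the 29 (6 higher, 2 lower) the unadjusted p was under 0.05. Over all genes 39.1% had an unadjusted p under 0.05, 21.9% higher and 17.2% lower.

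The promoters of the 5 called genes are shown because the histone classes differ in the motifs that lie there. The sequences are the bases before the annotated start in the RefSeq table (GRCm38.p6), 5′ to 3′ on the gene's strand, with motif matches in capitals: CCAAT or its complement ATTGG, the TATA box TATAAA, and the octamer ATTTGCAT. H1f8 lies at chr6:115944681-115944930 (plus strand), H2ac20 at chr3:96220881-96221071 (minus), H2bc18 at chr3:96269450-96269699 (plus), H4c9 at chr13:22041363-22041612 (minus) and H4c12 at chr13:21750554-21750803 (minus). The H2ac20 stretch stops after 191 bases, at the annotated edge of its neighbour H2bc21, and its octamer match at 193 bases lies beyond it.
H1f8: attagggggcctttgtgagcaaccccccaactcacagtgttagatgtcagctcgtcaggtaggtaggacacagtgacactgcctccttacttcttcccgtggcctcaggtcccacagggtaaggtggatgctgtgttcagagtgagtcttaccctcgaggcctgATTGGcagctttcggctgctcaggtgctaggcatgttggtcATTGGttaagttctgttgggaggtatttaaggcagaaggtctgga
H2ac20: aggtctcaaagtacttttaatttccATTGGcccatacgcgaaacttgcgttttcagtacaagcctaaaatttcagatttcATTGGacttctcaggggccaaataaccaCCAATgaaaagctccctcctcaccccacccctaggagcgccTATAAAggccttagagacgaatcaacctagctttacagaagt
H2bc18: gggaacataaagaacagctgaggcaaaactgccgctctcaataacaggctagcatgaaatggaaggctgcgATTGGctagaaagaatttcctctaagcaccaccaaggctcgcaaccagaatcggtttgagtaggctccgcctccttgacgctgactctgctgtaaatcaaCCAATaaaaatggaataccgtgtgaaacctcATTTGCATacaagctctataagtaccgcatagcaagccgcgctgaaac
H4c9: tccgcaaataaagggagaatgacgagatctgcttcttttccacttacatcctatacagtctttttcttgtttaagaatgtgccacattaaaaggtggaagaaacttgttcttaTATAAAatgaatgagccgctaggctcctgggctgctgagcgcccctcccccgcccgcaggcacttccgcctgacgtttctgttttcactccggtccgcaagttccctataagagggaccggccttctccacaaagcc
H4c12: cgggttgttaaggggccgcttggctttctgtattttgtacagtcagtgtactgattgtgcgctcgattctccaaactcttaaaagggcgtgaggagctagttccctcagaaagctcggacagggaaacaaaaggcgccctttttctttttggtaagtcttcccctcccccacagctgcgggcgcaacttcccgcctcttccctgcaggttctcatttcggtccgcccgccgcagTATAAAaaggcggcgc

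A promoter of 250 upstream bases could be matched for 27 of the 29 genes, all but H2bc21 and H4c14. Searching both strands, 20 of these 27 (74.1%) held CCAAT, against 34.5% of the promoters of all 27025 symbols in the table. By class this was 6 of 6 H2A, 7 of 7 H2B, 6 of 8 H1 and 1 of 6 H4 promoters. TATAAA stood in 13 of 27 (48.1%), against 13% of all promoters. The octamer ATTTGCAT, the site known for the factor Oct-1 in H2B promoters, stood in 5 of 7 H2B and 3 of 6 H2A promoters and in 0 of 8 H1 and 0 of 6 H4 promoters, in all 29.6% against 1.61% of all promoters. The H1 box AAACACA stood in 4 of 8 H1 promoters and in 25.9% of all 27, against 6.22% of all promoters. An E2F site, TTTGGCGC or TTTCGCGC, stood in H2ac10, H2bc12 and H2bc22 (11.1%, against 0.673%). None of those 3 genes was among the 5 called, and called and uncalled genes both carried CCAAT and TATAAA. A match is a run of letters, and binding at these sites was not measured.

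**Figure D1:**
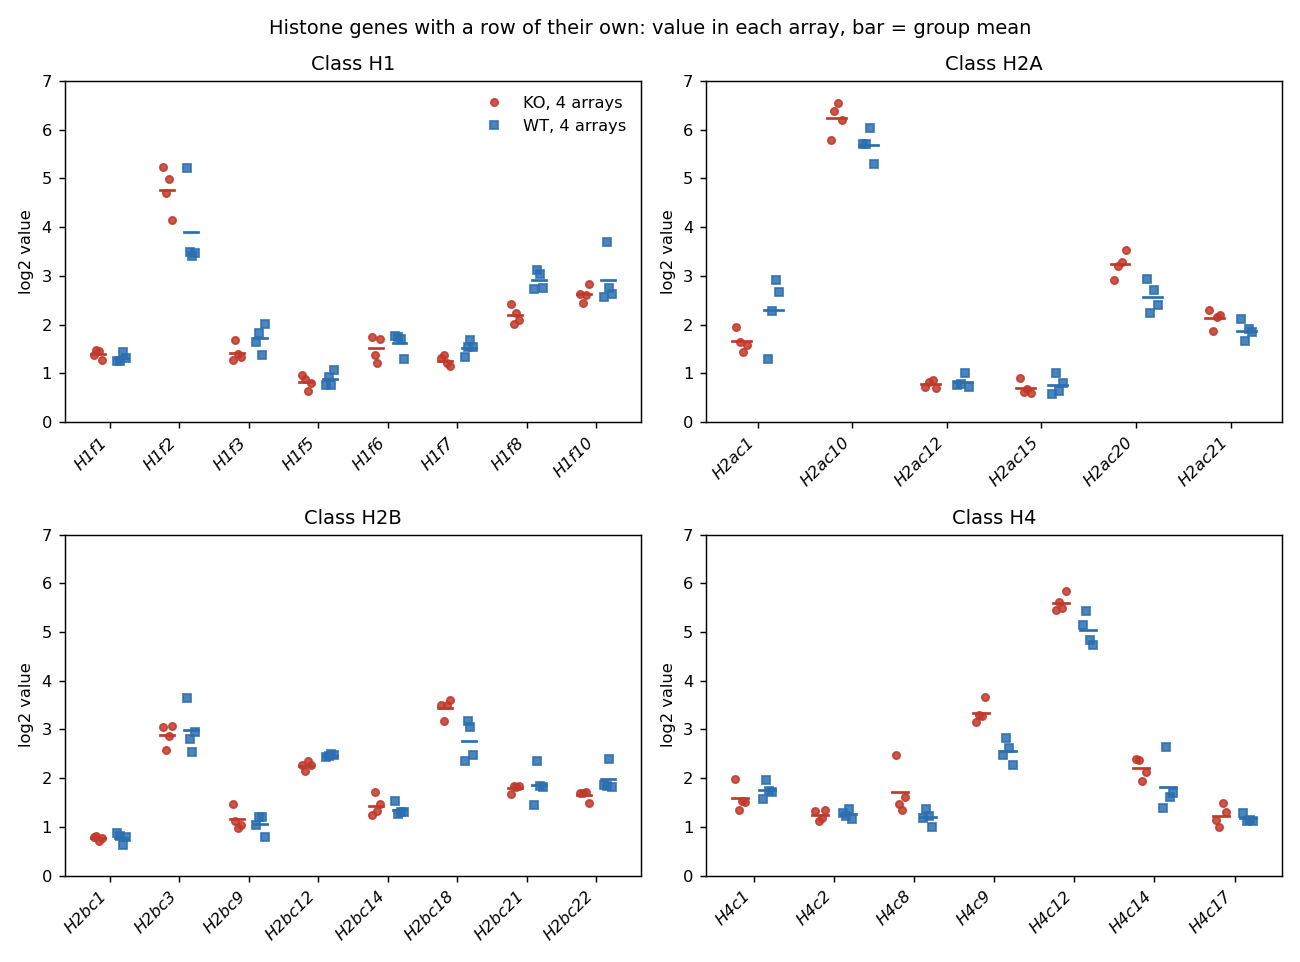
Log2 expression value of each of the 29 histone genes in every array, in 4 panels by class, with 4 KO points (red circles) left of 4 WT points (blue squares) and a bar at each group mean. Most genes sit below 3 in both groups, and all 4 KO points stand above all 4 WT points for H4c9 and H4c12 and below them for H1f8, H2bc12 and H2bc22.

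The 29 genes were mostly dim. Their median level was 1.81, at the 31.1 percentile of all genes (median of all genes 2.54), 17 had a mean below 2 and 25 a mean below 3. Of the 17 with a mean below 2, 0 were called in limma either way, against 0.486% higher and 6.93% lower among all genes at that level. Between 2 and 3, 2 of 8 histone genes were higher and 1 was lower, against 5.07% and 12.2% of all genes. Above 3 stood only H2bc18, H1f2, H4c12 and H2ac10, of which H2bc18 and H4c12 were higher. Of the 3 histone genes with a mean of 4 to 6, 1 was higher, against 37.9% of all genes there. Levels of different genes come from different probes and were not ranked as amounts of mRNA, and fewer cells of a type cannot be told apart from less RNA per cell in whole tissue.

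The median difference over the 29 genes was -0.02, against -0.06 over all genes, and its sign turned positive under each of 3 other scalings (0.09 under a second quantile normalization, 0.12 under median centring and 0.13 under cyclic loess). In the main values 14 genes had a positive and 15 a negative difference. Below a mean level of 2 the histone median was -0.05, against -0.19 in all genes. Between 2 and 3 it was 0.08, against -0.17. The groups did not overlap in 5 genes, with KO above in 2 and below in 3. Over all genes this held in 27.4%, with KO above in 15.3% and below in 12.1%. The median SE was 0.16, as in all genes (0.16).

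**Figure D2:**
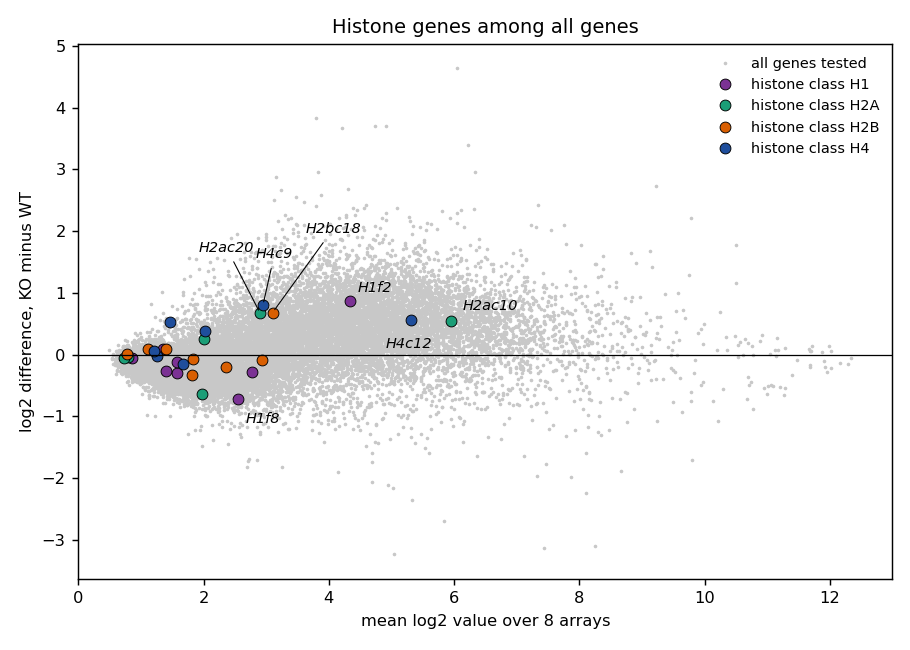
Difference KO minus WT (log2, vertical axis) against the mean log2 value over the 8 arrays (horizontal axis) for all 22180 genes (grey) and the 29 histone genes (coloured by class). The histone genes lie inside the grey cloud, mostly at its dim left end, with H4c9, H2ac20, H2bc18, H4c12, H2ac10 and H1f2 above 0 and H1f8 below.

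Histone H4 had 2 of 7 genes higher, 0 lower and a median difference of 0.38. That median was 0.17 under a second quantile normalization, 0.20 under cyclic loess and 0.52 under median centring. At an unadjusted p under 0.05 limma gave 3 higher and 0 lower H4 genes, 2 and 0 of H2A, and 1 and 0 of H2B. Over all genes 21.9% were higher and 17.2% lower at that level of p. H4c9 had values of 3.16, 3.29, 3.27 and 3.66 in KO, against 2.48, 2.83, 2.61 and 2.27 in WT. Every KO array stood above every WT array. The difference was 0.80 ± 0.16 (SE, n = 4 each; 1.74-fold; 95% interval 0.45 to 1.15; limma adjusted p = 0.00936). It passed without each array in turn (adjusted p 0.00902 to 0.0313), and in the males alone (n = 3 each) it was 0.60 with an adjusted p of 0.0666. H4c12 had 5.45, 5.62, 5.50 and 5.84 in KO, against 5.15, 5.42, 4.84 and 4.73 in WT. The groups did not overlap, but the lowest KO value lay close to the highest WT value, 5.45 against 5.42. The difference of 0.57 ± 0.17 (limma adjusted p = 0.0412) was 0.0529 in adjusted p with the replicate block. It passed without WT replicate 1 or WT replicate 2 and in no other of the 8 sets that left out 1 array, where the adjusted p lay between 0.0563 and 0.117. A second quantile normalization gave H4c12 a difference of 0.14 and cyclic loess 0.17, neither passing. In the males alone the H4c12 difference was 0.386 with a limma adjusted p of 0.218.

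The other 5 H4 genes did not pass. H4c8 had 2.47, 1.47, 1.35 and 1.61 in KO, against 1.19, 1.36, 1.22 and 1.003 in WT, a difference of 0.53 ± 0.23 (limma adjusted p = 0.116). KO replicate 1 was the high array, and the groups overlapped. H4c14 had 2.40, 2.37, 1.94 and 2.13 in KO, against 1.38, 2.64, 1.60 and 1.70 in WT, where WT replicate 2 was the highest of all 8. Its difference was 0.38 ± 0.25 (limma adjusted p = 0.275), and without WT replicate 2 it was 0.65 and passed (0.0238). H4c17, H4c2 and H4c1, all dim, differed by 0.06, -0.02 and -0.16. Nearly all H4 genes encode the same protein, and each of the 7 is also annotated to rows shared with other H4 genes, so RNA of one copy may be read by the probes of another.

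Histone H2A had 1 of 6 genes higher, 0 lower and a median difference of 0.11. H2ac20, a replication-dependent H2A gene on chromosome 3, had 2.92, 3.21, 3.29 and 3.53 in KO, against 2.93, 2.24, 2.71 and 2.41 in WT. The groups overlapped by 1 array on each side, KO replicate 1 and WT replicate 1. The difference was 0.67 ± 0.18 (SE; 1.59-fold; limma adjusted p = 0.0306). Among the 8 sets that left out 1 array, it passed only without KO replicate 1 or without WT replicate 1 (0.0513 to 0.0904 in the other 6). In the males alone the H2ac20 difference was 0.515 with a limma adjusted p of 0.175. H2bc21, whose annotated edge lies 191 bases from the H2ac20 start, differed by -0.07 ± 0.18.

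H2ac10, the brightest row of the 29, had 5.79, 6.39, 6.54 and 6.21 in KO, against 5.70, 5.70, 6.04 and 5.29 in WT. Only KO replicate 1 fell within the WT range. The difference of 0.55 ± 0.20 (95% interval 0.106 to 0.996) did not pass in limma (adjusted p = 0.0733), passed with the replicate block (0.0452) and without KO replicate 1 (0.70; 0.0367), and was 0.15 under a second quantile normalization and under cyclic loess. H2ac1, known from testis, ran the other way, with 1.96, 1.65, 1.43 and 1.58 in KO, against 1.29, 2.29, 2.91 and 2.68 in WT. WT replicate 1 was below all KO arrays and the other 3 WT arrays were above them. The difference of -0.64 ± 0.31 (limma adjusted p = 0.153) became -0.97 without WT replicate 1 and then passed (0.00718). H2ac21 had 2 rows of opposite sign, 0.25 ± 0.14 in the brighter row and -0.25 ± 0.12 in the dimmer, and neither passed. H2ac12 and H2ac15 had means below 1 and differed by -0.04 and -0.05.

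Histone H2B had 1 of 8 genes higher, 0 lower and a median difference of -0.03, positive under each of the 3 other scalings. H2bc18, an H2B gene on chromosome 3, had 3.50, 3.17, 3.51 and 3.60 in KO, against 2.34, 3.18, 3.05 and 2.47 in WT. KO replicate 2 lay just below WT replicate 2, and the other 3 KO arrays were above all WT arrays. The difference was 0.68 ± 0.20 (SE; 1.60-fold; limma adjusted p = 0.04), and 0.0536 with the replicate block. Leaving out KO replicate 1, 3 or 4, or WT replicate 1 or 4, ended the call (adjusted p 0.0651 to 0.106). In the males alone the H2bc18 difference was 0.532 with a limma adjusted p of 0.206.

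H2bc12 was narrow in both groups, with 2.27, 2.16, 2.34 and 2.27 in KO, against 2.43, 2.45, 2.49 and 2.47 in WT. The groups did not overlap, and the difference of -0.20 ± 0.10 did not pass in limma (adjusted p = 0.167). H2bc22 had 1.70, 1.69, 1.72 and 1.48 in KO, against 1.86, 1.84, 2.38 and 1.81 in WT, also without overlap, and its difference of -0.33 ± 0.15 did not pass (0.137). H2bc1, the testis H2B, had a mean below 1 and differed by 0.00. H2bc3, H2bc9, H2bc14 and H2bc21 differed by -0.10, 0.09, 0.09 and -0.07.

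Among the linker histones 0 of 8 genes were higher, 1 was lower and the median difference was -0.19. Their median level was 1.57, and the median difference of all genes below a mean of 2 was also -0.19. The H1 median was -0.06 under a second quantile normalization and under median centring, and -0.04 under cyclic loess. At an unadjusted p under 0.05 the counts were 0 higher and 2 lower in limma, against 21.9% and 17.2% of all genes. H1f8 had 2.41, 2.02, 2.24 and 2.10 in KO, against 2.74, 3.11, 3.05 and 2.76 in WT. The highest KO array stood below the lowest WT array. The difference was -0.72 ± 0.14 (SE; 1.65-fold lower; limma adjusted p = 0.00882), it passed without each array in turn (0.00702 to 0.0331), and in the males alone it was -0.74 with an adjusted p of 0.0579.

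H1f2, one of the main somatic linker histones, had 5.23, 4.71, 4.997 and 4.15 in KO, against 5.22, 3.50, 3.41 and 3.48 in WT. WT replicate 1 lay level with the highest KO array, while the other 3 WT arrays were below all KO arrays. The difference of 0.87 ± 0.40 did not pass in limma (adjusted p = 0.136). It passed without WT replicate 1 (1.31; 0.00568) and with the replicate block (0.0386). The KO replicate 1 array was the highest KO array for this gene, so both replicate 1 arrays were high, and without both the difference was 1.16 (adjusted p = 0.0108). H1f10, the replication-independent H1x, had 2.63, 2.45, 2.61 and 2.84 in KO, against 2.57, 3.69, 2.75 and 2.62 in WT, a difference of -0.28 ± 0.24 (0.394).

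The germ cell H1 genes H1f6 and H1f7 differed by -0.12 ± 0.17 and -0.27 ± 0.12, and the somatic genes H1f1, H1f3 and H1f5 by 0.08, -0.29 and -0.06, none passing in limma. Of the 5 germ cell histones (H1f6, H1f7, H1f8, H2ac1 and H2bc1), 0 were higher and 1 was lower, H1f8. Their mean level over the list was 1.36 to 1.64 across KO arrays, against 1.60 to 1.99 across WT arrays, and the ranges overlapped.

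**Figure D3:**
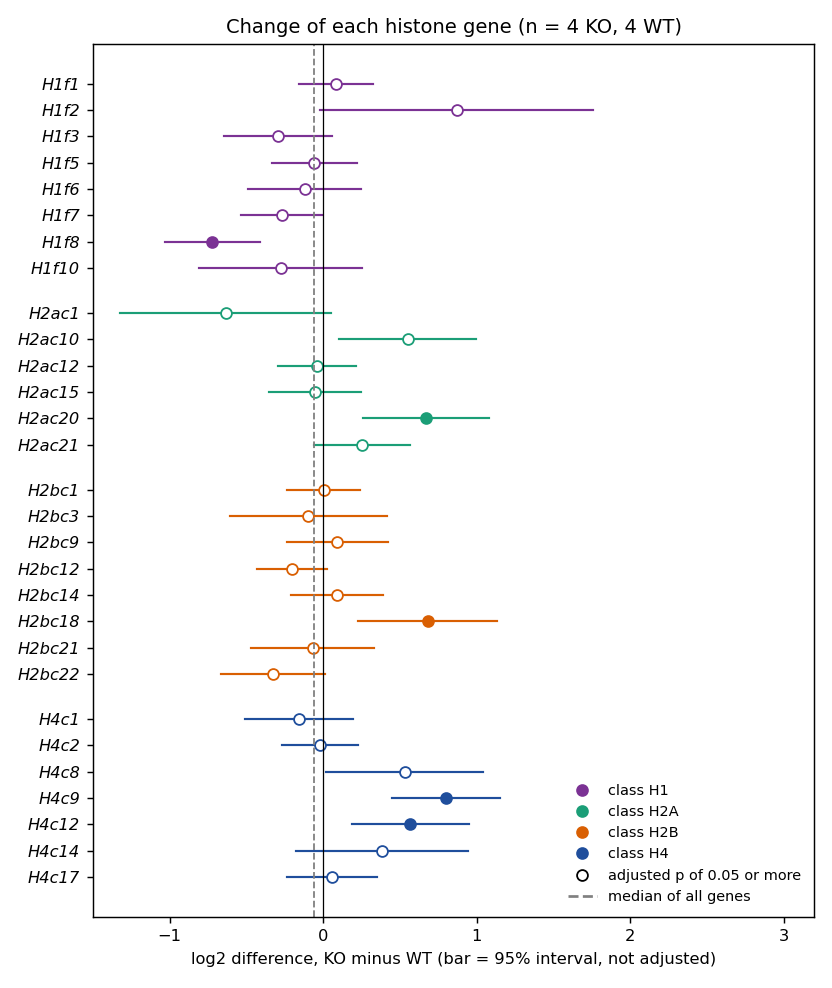
Difference KO minus WT (log2, horizontal axis) of each of the 29 histone genes, by class, with the 95% interval without adjustment as a bar, filled where limma's adjusted p was under 0.05. The 5 filled points are H1f8 to the left of 0 and H2ac20, H2bc18, H4c9 and H4c12 to the right, and the dashed line is the median of all genes at -0.06.

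By location, 21 of the 29 genes lie on chromosome 13, with 2 higher and a median difference of -0.02, and 5 on chromosome 3, with 2 higher and a median of 0.38. Over all genes 14.6% were higher. The 2 on chromosome 3, H2ac20 and H2bc18, kept the call in only 11 and 7 of 20 alternatives. H1f8 and H1f10 are on chromosome 6 and H1f7 on chromosome 15. On chromosome 13 the divergent pair H2ac12 and H2bc12, whose starts are 177 bases apart, differed by -0.04 ± 0.11 and -0.20 ± 0.10. The divergent pair H2bc1 and H2ac1, 280 bases apart, differed by 0.00 ± 0.11 and -0.64 ± 0.31.

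Most histone genes do not have a row of their own on this array. RefSeq lists 67 protein-coding genes whose symbols the rule would take, of which 14 had only a row of their own, 15 had their own and shared rows, 37 appeared only in rows annotated to several histone genes, and 1, H1f0, was in no row. All 12 H3 genes were in the shared group, so no H3 gene could be described singly. The 37 shared rows hold 34 distinct sets of values, since 3 pairs of rows were identical and were counted once. Among them 10 had a mean of at least 3, at levels up to 8.51. These rows were tested with every row of the table, where 13.3% of 41345 rows were called, 8.56% higher and 4.71% lower. Of the 34, 1 was higher and 1 was lower.

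The higher shared row is annotated to 10 H2A genes, among them H2ac4, H2ac6 and H2ac12, and had 5.68, 6.12, 6.03 and 5.93 in KO, against 5.29, 5.45, 4.89 and 4.41 in WT. The groups did not overlap, and the difference was 0.93 ± 0.23 (SE; 1.90-fold; limma adjusted p = 0.0325). A brighter row annotated to 12 H2A genes had 6.47, 6.70, 6.63 and 6.68 in KO, against 6.31, 6.19, 6.44 and 6.05 in WT. These groups did not overlap either, and the difference of 0.38 ± 0.12 did not pass (0.0737). The other shared rows annotated to the same 10 genes as the higher row were dim, with means of 0.86 to 1.62, and none was called. Their differences were 0.83, 0.42, 0.01, -0.06, -0.09 and -0.12. In the row that differed by 0.42, every KO array stood above every WT array. The row of H2ac18, H2ac19 and H2ac20, the brightest, averaged 8.58 ± 0.12 in KO and 8.44 ± 0.16 in WT (SD, n = 4 each), a difference of 0.14 ± 0.12 (SE; limma adjusted p = 0.427). Its size is below that of the dimmer row annotated to H2ac20 alone, 0.67, and the difference between these rows was not tested.

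A row of 12 H2B genes averaged 7.31 ± 0.24 in KO and 6.89 ± 0.28 in WT (SD, n = 4 each), and its difference of 0.42 ± 0.18 did not pass in limma (0.141). A second, dimmer row of the same 12 genes averaged 3.87 in KO and 3.88 in WT, a difference of -0.01 ± 0.17. A row of H2bc4, H2bc6 and H2bc8 had 8.57, 8.30, 8.20 and 8.06 in KO, against a wider spread of 9.05, 7.03, 8.57 and 8.05 in WT, and a difference of 0.11 ± 0.38. A dimmer row of these 3 genes had 4.17, 3.79, 3.10 and 4.06 in KO, against 3.38, 3.02, 3.00 and 2.68 in WT. The groups overlapped, and the difference of 0.76 ± 0.25 did not pass in limma (0.0735). Whether rows of the same genes differed from each other in these values was not tested. A row of H2bc7, H2bc11, H2bc13 and H2bc15 averaged 7.71 in KO and 7.81 in WT.

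For H3, 1 of 12 rows had a mean of at least 3. That row, annotated to 8 genes including H3c2, H3c13 and H3c15, had 6.21, 5.97, 6.02 and 6.07 in KO, against 6.12, 5.92, 6.02 and 6.01 in WT. The groups overlapped, and the difference was 0.05 ± 0.11 (limma adjusted p = 0.766). Of the 12 H3 rows 0 passed in limma (adjusted over all rows), and 1 (lower) had an unadjusted p under 0.05, against 33.4% of all rows, 17% higher and 16.4% lower. For H4, the 5 shared rows all had means below 2, and 1 of them, annotated to 13 genes, was lower in KO, with 1.24, 1.03, 0.99 and 1.05 in KO, against 1.70, 1.83, 1.23 and 1.96 in WT (-0.60 ± 0.17; limma adjusted p = 0.0467). It overlapped by 1 array on each side, and it ran opposite to the single-gene rows of H4c9 and H4c12, both of which it also lists. The other shared rows annotated to the same 13 genes differed by -0.09, 0.25 and 0.28, and none was called.

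**Figure D4:**
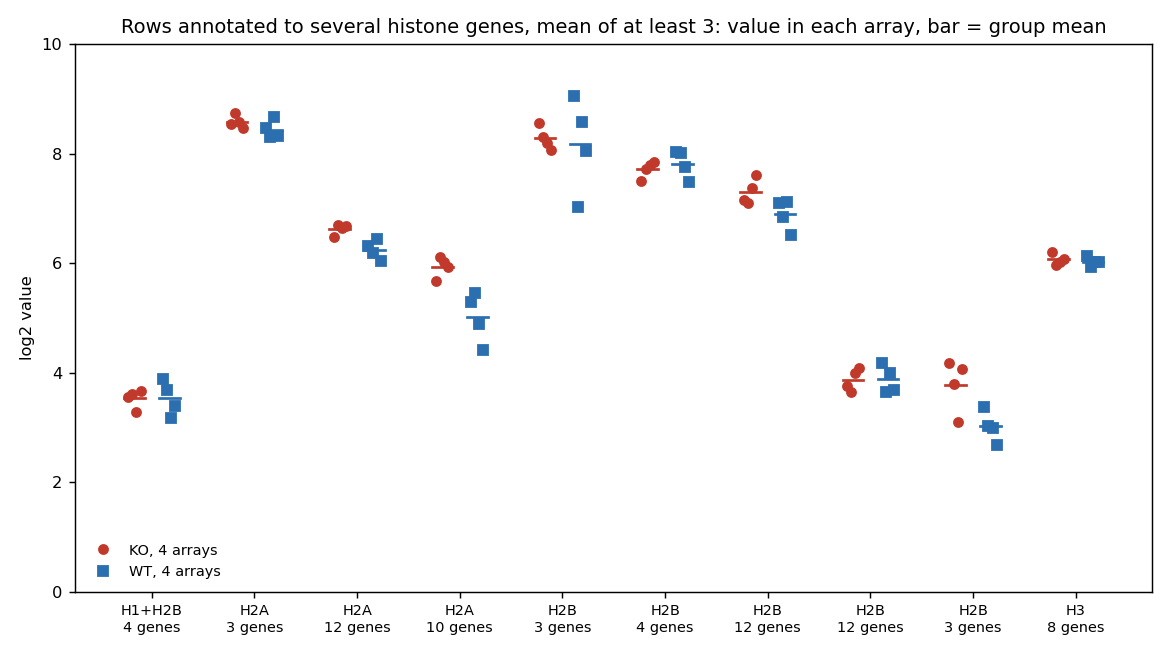
Log2 value in each array of the 10 distinct rows annotated to several histone genes and with a mean of at least 3, each with 4 KO points (red circles) left of 4 WT points (blue squares) and a bar at the group mean. The H2A row of 10 genes has every KO point above every WT point, and the H3 row of 8 genes has both groups near 6.

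Genes for the factors that make, process and carry histones and their mRNAs were read from the same fit. Of 18 measured factors for histone gene transcription and mRNA processing (20 listed), 10 were higher and 0 lower in limma, with a median difference of 0.60, and 11 were higher and 1 lower at an unadjusted p under 0.05. Their mean level was 4.20 to 4.30 across KO arrays, against 3.49 to 3.73 across WT arrays. Of 25 measured histone chaperones (27 listed), 15 were higher and 0 lower, with a median of 0.59 and 19 higher and 0 lower at an unadjusted p under 0.05. Their mean level was 4.98 to 5.02 in KO, against 4.21 to 4.56 in WT. The medians stayed positive under the 3 other scalings, at 0.33 to 0.74 for the factors and 0.23 to 0.73 for the chaperones. The lists are brighter than the histone genes, with median levels of 4.06 and 4.62. In that range, 4 to 6, 37.9% of all genes were higher and the median difference of all genes was 0.47. The shares and medians of the lists are to be read against these values.

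Npat, the coactivator that links cyclin E and CDK2 to histone gene clusters, had 4.95, 4.91, 4.603 and 4.77 in KO, against 3.87, 2.75, 3.66 and 3.10 in WT. All KO arrays were above all WT arrays, and the difference was 1.46 ± 0.23 (SE; 2.75-fold; limma adjusted p = 0.00427). Casp8ap2 (FLASH), which works with Npat in the histone locus body, rose by 0.98 ± 0.17 (0.00575). Slbp, which binds the stem-loop of histone mRNAs and was named after its values were seen, had 4.41, 4.43, 4.51 and 4.32 in KO, against 3.57, 4.08, 3.97 and 3.91 in WT (0.54 ± 0.13; 0.0213). Lsm10, a part of the U7 snRNP that cuts the pre-mRNA, rose by 1.26 ± 0.18, and Cpsf3, the endonuclease, by 1.25 ± 0.23. Eri1 and Tut4, a 3′ exonuclease and a uridylyltransferase known to act in the decay of histone mRNA, rose by 1.27 ± 0.18 and 1.32 ± 0.20. Casp8ap2 and Cpsf3 were not called in the males alone (adjusted p 0.0579 and 0.0634). Lsm11 (-0.20) and Zfp473 (-0.44), other members of this machinery named after their values were seen, did not pass.

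Nasp, the chaperone that holds the reserve of soluble H3 and H4, had 4.05, 4.37, 3.92 and 4.52 in KO, against 3.08, 3.19, 3.14 and 3.27 in WT, without overlap. The difference was 1.05 ± 0.15 (SE; 2.06-fold; limma adjusted p = 0.00283). Hat1, which acetylates new H4, rose by 1.2 ± 0.17, and Dnajc9, a histone-binding co-chaperone, by 1.22 ± 0.14. Supt16, a FACT subunit, rose by 1.03 ± 0.15, Atrx, which places H3.3 with Daxx, by 1.11 ± 0.22, and Nap1l1, an H2A-H2B chaperone, by 0.63 ± 0.11. Nap1l1 was not called in the males alone (adjusted p 0.0511), under a second quantile normalization (0.20) or under cyclic loess (0.23), and Atrx was not called in the males alone (0.071). Under the same 2 scalings Supt16 was 0.62 and 0.62 and Atrx 0.72 and 0.71, and Hat1 was 0.62 as the mean of its rows, all still called.

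Of 8 other histone variants measured, most of them expressed outside S phase too, 2 were higher and 0 lower in limma, and 2 and 1 at an unadjusted p under 0.05. Their median level was 3.54, where 22.9% of all genes were called higher and 5.02% lower, so the higher count is near that share. Over all genes 21.9% were higher and 17.2% lower at an unadjusted p under 0.05. H2ax, the variant phosphorylated at DNA breaks, had 5.01, 5.22, 5.27 and 5.42 in KO, against 4.27, 4.42, 4.54 and 4.38 in WT, without overlap. The difference was 0.83 ± 0.13 (SE; 1.77-fold; limma adjusted p = 0.00362), and it did not pass under a second quantile normalization or cyclic loess. Macroh2a1 rose by 0.68 ± 0.14 (limma adjusted p = 0.00982). It was not called under those scalings or in the males alone (limma adjusted p = 0.0675). H2az1, named after its value was seen, H2az2, H2aj, Macroh2a2 and Hils1 differed by -0.04 ± 0.22, -0.26 ± 0.15, 0.15, -0.55 ± 0.19 and -0.09, none passing. H2az2 was called lower under a second quantile normalization (-0.68; limma adjusted p = 0.0429) and under cyclic loess (-0.64; 0.0371). Macroh2a2 was called lower without WT replicate 3 (-0.73; 0.0183) and with trend and robust moderation (0.0438).

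Of 26 S phase genes measured 12 were higher and 0 lower, with a median difference of 0.57, and their mean level was 3.45 to 3.93 in KO, against 2.82 to 3.16 in WT. Without KO replicate 2 the count was 7 and without KO replicate 4 it was 5. Of 14 mitosis genes 4 were higher and 0 lower, with 2 higher under the replicate block, and the count was 1 or 2 without KO replicate 2, 3 or 4 or WT replicate 2, 3 or 4. At an unadjusted p under 0.05, 17 S phase and 6 mitosis genes were higher and 0 of either list was lower. The median levels of these lists, 3.28 and 3.25, fall where 22.9% of all genes were called higher and 5.02% lower. The median difference of all genes at that level was 0.26. The mitosis count is near the 22.9%. Markers of other cells were read from the same fit, in which 14.6% of all genes were called higher. Of 5 macrophage markers, 2 were higher, Adgre1 by 2.29 ± 0.38 and Cd68 by 2.06 ± 0.52. Their median level was 5.88, and from 4 to 6 the share of all genes called higher was 37.9%, near this count. The mean of all 5 was 5.91 to 7.39 in KO, against 4.17 to 6.14 in WT. Of 3 duct markers 1 was higher, Krt19 by 1.13 ± 0.15, while Sox9 (-0.47 ± 0.17) and Cftr (-0.08) were negative and did not pass. Among 4 neutrophil, 4 B and T cell, 4 stellate, 3 endothelial and 3 islet markers 0 passed in limma. The part of these cells in the values of the histone genes and of the factors was not tested.

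**Figure D5:**
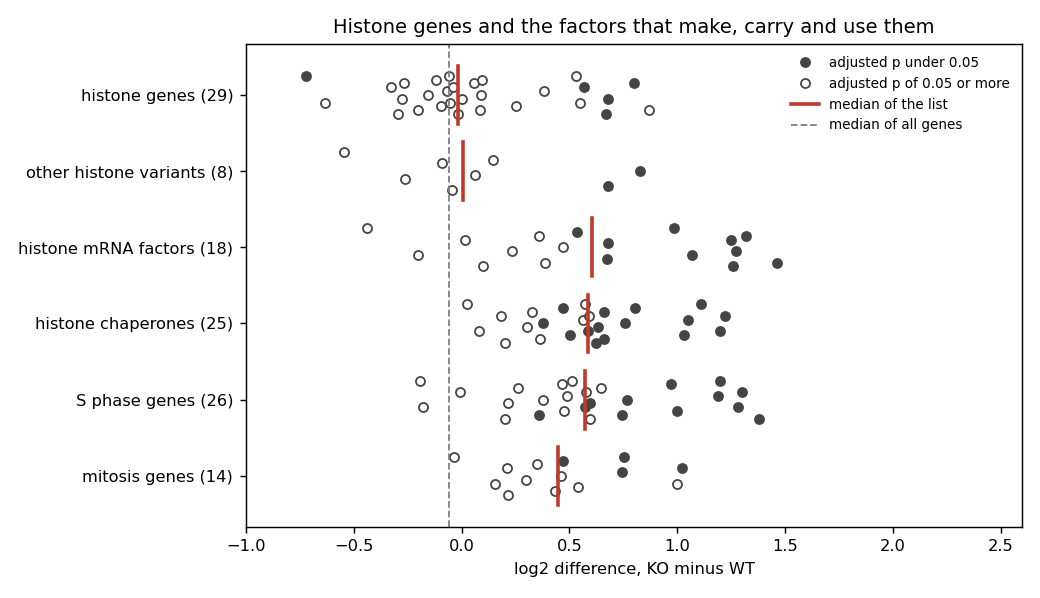
Difference KO minus WT (log2, horizontal axis) of every measured gene of 6 lists, filled where limma's adjusted p was under 0.05, with the list median in red and the median of all genes as a dashed line. The histone genes centre near 0 (median -0.02, positive under the 3 other scalings), and the mRNA factors, chaperones and S phase genes have medians near 0.6. By mean level, the median of all genes was -0.19 below 2, 0.26 from 3 to 4 and 0.47 from 4 to 6.

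The genotype difference was also compared between the sexes, with 1 female per genotype. The higher genes H4c9, H4c12, H2ac20 and H2bc18 differed by 1.39, 1.12, 1.13 and 1.13 in the female pair. In the males they differed by 0.602, 0.386, 0.515 and 0.532. H1f8 differed by -0.662 in the female pair and -0.742 in the males. In limma's interaction term 0 of 29 histone genes passed, and 1 had an unadjusted p under 0.05. The spread in this fit comes from the males alone, so these counts do not bear on whether the sexes differ.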

How the data were processed

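Whole pancreas RNA from 4 KO and 4 WT samples was hybridised to arrays, per the labels' protocols, as biotinylated cDNA prepared from 100 ng of each RNA. The submitters' processing notes name RMA, oligo and limma, without versions. The table deposited by the authors holds 41345 rows for 8 arrays, and its values, from 0.044 to 12.5, were read as log2. The sources used here do not state the log base, the signal over background or scan batches, and the number of arrays limits the precision.

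Rows were named through the platform annotation, which gave 23521 rows 1 symbol, 1814 rows several and 16010 rows none. A gene's row of highest mean was kept, leaving 22180 genes, whose symbols were checked by Entrez ID against RefSeq (23328 rows matched, 0 symbols changed). limma 3.58.1 (R 4.3.3) was fitted with genotype alone, and p-values were adjusted by Benjamini-Hochberg across the 22180 genes with 0.05 as the threshold; the fit was checked on simulated data. Genes were named by a rule: every called histone gene, the 5 brightest and 2 dimmest of each class, the germ cell histones, and in each list of factors, chaperones and variants the 6 of smallest p. H2bc14, Slbp, Lsm11, Zfp473 and H2az1 fall outside it and were named after their values were seen, as were the marker genes. The members and lists were chosen with earlier results of these data known.

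The sources used here do not state what a replicate number marks, and the replicate block treated equal numbers as pairs. The deviations from the group means correlated at 0.263, 0.165, 0.11 and 0.138 for the same number, all over 0.1, as did 2 of the 12 pairs of different number. KO replicate 2 with WT replicate 4 reached 0.125, above the 0.11 of replicate 3, so the pairing is not settled by these values. The blocked value stands beside a result where it changed the call or moved a count by over 1.5 times, and the closing section gives it for the classes. Alternatives covered sex, the block, males only, each array left out, scaling, the moderation, array weights, a level filter, the choice of rows and an ordinary test. Python 3.11.15 and pandas 2.3.3 were used for the promoter search.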

Additional observations from a re-analysis of the deposited data

Results flagged for a closer look

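In 8 of 58 groups of 4 arrays, 1 array of a histone gene stood far from the other 3 by Dixon's gap test. The nominal rate of the test is about 1 in 20. The share over all genes was not computed, so whether the histone genes differ from it is not known. H1f2 was 5.22 in WT replicate 1, against 3.41 to 3.50 in the other WT arrays. H1f10 was 3.69 in WT replicate 2, against 2.57 to 2.75. H1f6 was 1.30 in WT replicate 4, against 1.71 to 1.76. H2bc14 was 1.53 in WT replicate 1, against 1.27 to 1.30, and H4c17 was 1.29 in the same array, against 1.12 to 1.15. H2bc22 was 1.48 in KO replicate 4, against 1.69 to 1.72 in the other KO arrays, and 2.38 in WT replicate 3, against 1.81 to 1.86. H2bc21 was 1.68 in KO replicate 1, against 1.82 to 1.84. Of the 8, 6 were in WT and 2 in KO, and only H1f2 had a mean above 3.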

How the results depend on the processing

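Of 936 values of 46 named genes under the alternatives, 870 kept their direction, or missed the threshold as before, 50 lost the call, 16 gained it and 0 called values reversed. H4c9 and H1f8 kept the call in 19 of 20 alternatives, H2ac20 in 11 of 20, H2bc18 in 7 of 20 and H4c12 in 6 of 21. The histone genes counted 4 higher and 1 lower. The count was 2 higher with sex as a term, 1 with a second quantile normalization, 2 with cyclic loess, 2 with every row tested, and 1 higher and 2 lower with an ordinary equal-variance test. In the males alone it was 0 and 0 in limma (2 higher and 1 lower at an unadjusted p under 0.05), beside 770 and 145 for all genes. Of the 3 histone genes with a mean of at least 4, 1 was higher and 0 lower. Array weights gave 2 lower, as did counting the shared rows and leaving out both replicates 1, an alternative chosen after seeing the data. Leaving out 1 array gave 1 to 4 higher and 1 to 2 lower. It was 2 higher without KO replicate 2 or WT replicate 3, 1 without KO replicate 3, KO replicate 4 or WT replicate 4, and 2 lower without WT replicate 1.

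By class the main counts were 0 higher and 1 lower H1, 1 higher and 0 lower H2A, 1 higher and 0 lower H2B, and 2 higher and 0 lower H4. The replicate block gave 1 higher H1, 2 higher H2A, 0 H2B and 1 H4, so 4 in all, and changed no other call of a histone class. Without both replicates 1 the counts were 1 higher H1, 2 higher and 1 lower H2A, 0 H2B and 1 H4. Higher H2A was 0 in the males, with a second quantile normalization, with the level filter and with the ordinary test, and 2 with median centring, and array weights gave 1 lower. Higher H2B was 0 with sex as a term, in the males, with a second quantile normalization, cyclic loess, every row and the ordinary test, which gave 1 lower. Higher H4 was 0 in the males and 1 with sex as a term, a second quantile normalization, cyclic loess, trend and robust moderation, the level filter, every row and the ordinary test. Lower H1 was 0 in the males and with the level filter. Leaving out 1 array gave 0 to 1 higher and 1 to 1 lower H1, 0 to 2 higher and 0 to 1 lower H2A, 0 to 1 higher H2B and 1 to 3 higher H4. The cause was not tested.

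All genes counted 3241 higher and 1551 lower. The counts were 1228 higher with a second quantile normalization, 1521 higher with cyclic loess, 615 lower with median centring, 291 lower with the level filter, and 1534 and 847 with the ordinary test. Leaving out 1 array gave 1781 to 3713 higher and 459 to 2357 lower. Median centring moved the median of all genes to 0.08 from -0.06. The share of calls that were higher was 67.6%, and 51.8%, 87.7% and 56.4% under a second quantile normalization, median centring and cyclic loess. The mRNA factors counted 10 higher, and 4 in the males and 6 with a second quantile normalization. The chaperones counted 15, and 4, 7 and, with cyclic loess, 8. The 2 higher variants became 1 in the males and 0 with either normalization. The 12 S phase genes became 3 in the males, 7 with a second quantile normalization and 4 with the ordinary test. The 4 mitosis genes became 2 with the replicate block, a second quantile normalization or every row, and 0 in the males and with the ordinary test. Signal over background is unknown, so what it limits in the dim histone rows was not tested.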
